A study of Rattus norvegicus with 2 samples.

Results

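Genes of DNA replication and cell division were followed between 2 stages of fetal rat skin. The set holds 60 genes grouped by known function, and a gene was taken where a non-control probe on the arrays carried its name, allowing for the endings the array design adds to predicted or mapped genes. Probes with these names were found for 58 of the 60, out of 18361 gene names on the arrays, and the brightest probe of each gene was used. Aurka and Cdt1 had no probe under those names. The 58 fall into 23 genes of DNA replication, 9 genes that control G1 and entry into S phase, and 26 genes of mitosis. The later stage, E19, was skin of day 18.5 from 3 Sprague Dawley samples whose RNA was pooled, and the earlier stage, E16, was skin of day 16.5 from 4 pooled samples of the same strain, with no treatment at either stage. Pooling leaves 1 RNA pool per stage. Both pools were hybridised together to 2 two-colour Agilent arrays, with E19 in Cy5 on 1 array and in Cy3 on the other.

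Before a cell copies its DNA, the licensing factors Cdc6 and Cdt1 load the MCM helicase onto origins, and geminin blocks loading anew until the next cycle. Cyclin D with Cdk4, and then cyclin E, phosphorylate the retinoblastoma protein Rb1, which frees E2F transcription factors to switch on the replication genes. Genes needed later, for the spindle, the checkpoint and cytokinesis, are switched on in G2 and mitosis, and many carry a CHR element, TTTGAA, and CCAAT boxes in their promoters. In growing fetal skin, basal keratinocytes and dermal cells divide, and keratinocytes leave the cycle as they move up and cornify.

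The promoters of the replication and mitosis genes differ in these elements, so 4 are shown, from the RefSeq promoter table of the GRCr8 build. Each runs from 250 bases before to 50 bases after the start of the gene, 5′ to 3′ on the gene's strand. Capitals mark matches on either strand to 3 forms of the E2F site (TTTCGCGC, TTTGGCGC and TTTCCCGC), to TTTGAA or to CCAAT. The replication helicase genes Mcm5 and Mcm3 lie at chr19:13488563-13488862 on the plus strand and chr9:30733697-30733996 on the minus strand. The mitotic genes Cdc2a (now Cdk1) and Mki67 lie at chr20:19265043-19265342 on the plus strand and chr1:199952544-199952843 on the minus strand. These 4 are the replication and mitosis genes with most matches, with ties broken by the larger ratio between stages.
Mcm5: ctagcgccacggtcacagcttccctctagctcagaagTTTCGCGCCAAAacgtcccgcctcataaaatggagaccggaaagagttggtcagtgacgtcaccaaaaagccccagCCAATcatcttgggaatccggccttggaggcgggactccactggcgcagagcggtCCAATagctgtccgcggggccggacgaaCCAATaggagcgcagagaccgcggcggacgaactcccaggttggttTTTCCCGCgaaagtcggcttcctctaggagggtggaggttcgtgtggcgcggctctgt
Mcm3: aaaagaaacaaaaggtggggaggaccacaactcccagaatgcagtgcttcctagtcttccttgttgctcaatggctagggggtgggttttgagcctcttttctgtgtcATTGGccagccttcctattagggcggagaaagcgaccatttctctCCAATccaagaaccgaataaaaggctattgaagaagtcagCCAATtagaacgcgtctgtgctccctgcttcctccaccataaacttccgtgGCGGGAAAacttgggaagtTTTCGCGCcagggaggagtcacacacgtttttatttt
Cdc2a: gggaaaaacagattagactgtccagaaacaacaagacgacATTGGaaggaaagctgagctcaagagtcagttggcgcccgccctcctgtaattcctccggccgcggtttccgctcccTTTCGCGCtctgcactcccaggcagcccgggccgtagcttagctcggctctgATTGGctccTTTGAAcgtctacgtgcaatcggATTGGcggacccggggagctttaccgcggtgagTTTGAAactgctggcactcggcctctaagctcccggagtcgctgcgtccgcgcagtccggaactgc
Mki67: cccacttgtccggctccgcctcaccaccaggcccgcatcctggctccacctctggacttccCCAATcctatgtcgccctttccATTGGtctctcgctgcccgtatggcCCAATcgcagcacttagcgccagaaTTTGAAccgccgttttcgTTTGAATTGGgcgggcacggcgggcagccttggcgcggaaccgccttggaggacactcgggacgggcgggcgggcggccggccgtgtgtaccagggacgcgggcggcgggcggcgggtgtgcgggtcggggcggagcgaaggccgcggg
In Mcm5 a TTTCGCGC and a TTTGGCGC on the other strand overlap, and in Mki67 a TTTGAA overlaps a CCAAT on the other strand.

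Of the 58 genes, 46 had a promoter in that table. At least 1 of the 3 E2F forms stood in 10 of 20 replication promoters, in 1 of 21 mitosis promoters and in 1.82% of all 27457 promoters. The mitosis promoter with an E2F form was that of Cdc2a. TTTGAA stood in 1 of 20 replication promoters (Mcm2), in 16 of 21 mitosis promoters and in 18.1% of all promoters. CCAAT stood in 10 of 20 replication promoters, in 18 of 21 mitosis promoters and in 37.7% of all. TTTGAA and CCAAT stood together in 0 replication promoters and 14 mitosis promoters, against 7.25% of all. Of the 5 G1 genes with a promoter, Rb1 held TTTCCCGC, Ccnd3 held CCAAT, and Ccne1, Cdk4 and Cdkn1a held none of the 5 motifs. A match in the sequence says nothing of whether a factor was bound in these samples.

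On each array of 45018 spots, between 69.9% and 70.7% were well above background for E19 and between 69.8% and 72.6% for E16, and 7 and 15 spots were saturated. In all, 14803 genes were detected, that is, well above background for at least 1 pool on both arrays. All 58 genes of the set were well above background in both pools on both arrays, and none used a saturated spot. Markers of basal keratinocytes, such as Krt14 and Tp63, and of fibroblasts, such as Col1a2 and Col3a1, were measured in both pools. So were markers of neurons, cartilage and muscle, such as Chgb, Col2a1 and Myod1, so presence alone does not check the skin label.

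Most replication and mitosis genes were slightly lower in E19 skin than in E16 skin, and none differed strongly. Ratios below are log2 of E19 over E16, averaged over both arrays, with the SD of the 2 arrays, so a negative value means lower in E19. With both arrays required to pass 2-fold, 0 of 58 genes were higher in E19, against 4.15% of all detected genes, and 0 of 58 were higher in E16, against 3.75%. A ratio below 0 on both arrays was found for 47 of 58 (81%), against 36.6% of all detected genes. A ratio above 0 on both arrays was found for 4 of 58 (6.9%), against 42% of all. The median ratio was -0.26 over the 58 genes, or 1.20-fold higher in E16, and 0.02 over all detected genes. The single ratios ran from -1.11 (Ccne1) to 0.24 (Cdc25b). Of the 58, 53 lay between -0.5 and 0.5, against 11038 of all 14803 detected genes.

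These differences have no test, because each stage is 1 pool, and the SD of 2 arrays is technical and holds nothing of the spread between fetuses or litters. In whole skin, fewer dividing cells and less of these RNAs per cell cannot be told apart. The count of 47 rests on correcting the dye difference by brightness. With plain median centring of each array it was 10 of 58 (19.7% of all detected genes). With E19 in Cy3, 58 of 58 genes were then below 0, against 10341 of all 14803 detected genes. With E19 in Cy5 it was 10 of 58, against 3887 of 14803. By that count the set was not lower than other genes on that array, though its median was, at 0.21 against 0.31. A mean below 0 was found for 51 of 58 as before, against 7163 of 14803. Centred on 10 spike-in RNAs, the median of all detected genes itself moved to -0.20 and the count to 56 of 58, with 61.6% of all detected genes below 0.

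**Figure D1:**
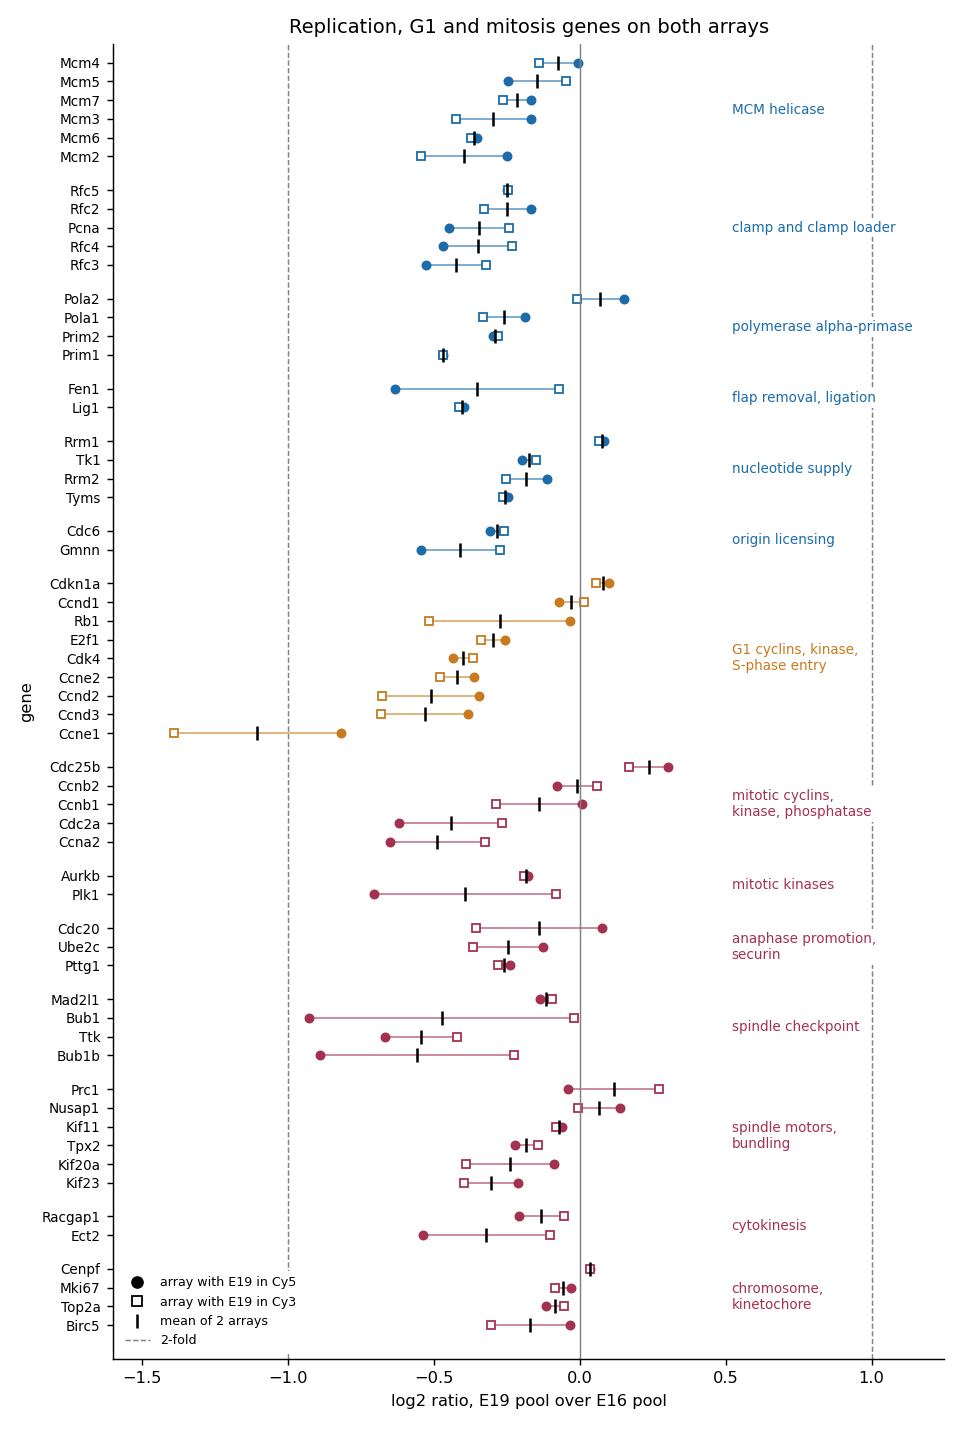
Log2 ratio of E19 over E16 (x axis) for each of the 58 genes, grouped by role, with filled circles for the array with E19 in Cy5, open squares for the array with E19 in Cy3 and a bar for their mean. Dashed lines mark 2-fold. Most points lie just left of 0, and Ccne1 lies farthest left at a mean of -1.11. With ratios centred on the spike-in RNAs, 6 of the 7 genes with a mean right of 0 would lie left of it.

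The replication genes formed the most even class. Their median was -0.28 (-0.25 and -0.26 on the 2 arrays), 21 of 23 were below 0 on both arrays, and the range was -0.47 to 0.07. Of the MCM helicase subunits, which unwind DNA at the fork, 6 of 6 were below 0 on both arrays. In the level pairs that follow, the array with E19 in Cy5 comes before its dye swap, and a level is a log2 intensity normalised over both channels and both arrays. Mcm2 had levels of 12.08 and 12.02 in E19, against 12.33 and 12.57 in E16, a ratio of -0.40 ± 0.21. Mcm6 had 12.78 and 12.69 in E19, against 13.13 and 13.06 in E16, a ratio of -0.36 ± 0.013. Mcm4, with 10.11 and 10.31 in E19 against 10.12 and 10.45 in E16, stood closest to no difference at -0.07 ± 0.095. The values of Mcm2 and Mcm6 in E19 lay below both of their E16 values, and those of Mcm4 overlapped. Mcm3, Mcm7 and Mcm5 lay between, at -0.30, -0.22 and -0.15.

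The sliding clamp and its loader had a median of -0.35, with 5 of 5 genes below 0 on both arrays. Pcna, the clamp that holds polymerases on DNA, had levels of 14.65 and 14.71 in E19, against 15.09 and 14.96 in E16, a ratio of -0.35 ± 0.14. Rfc3, a clamp loader subunit, had 14.04 and 13.94 in E19, against 14.57 and 14.27 in E16, a ratio of -0.43 ± 0.15. For each of these genes both E19 values were below both E16 values. Rfc4, Rfc2 and Rfc5 had ratios of -0.35, -0.25 and -0.25.

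Prim1, the primase subunit that makes the RNA primers, had the lowest ratio of the replication genes. Its levels were 13.96 and 13.88 in E19, against 14.42 and 14.35 in E16, and its ratio was -0.47 on each array. Its partners in polymerase alpha-primase ranged widely: Prim2 stood at -0.29 ± 0.013, Pola1 at -0.26 ± 0.10 and Pola2 at 0.07 ± 0.12. Pola2 had levels of 9.95 and 9.84 in E19, against 9.80 and 9.85 in E16, and its sign differed between the arrays. Lig1, the ligase that seals Okazaki fragments, had 14.10 and 14.23 in E19, against 14.50 and 14.65 in E16, a ratio of -0.41 ± 0.013. Fen1, the nuclease that trims their flaps, had a ratio of -0.63 on 1 array and -0.07 on its dye swap, with levels of 14.66 and 14.91 in E19, against 15.29 and 14.98 in E16. The mean for Fen1, -0.35, was thus set mainly by 1 array, and a dimmer probe of Fen1 gave 0.20.

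The genes of nucleotide supply stood nearest to 0 among the replication roles, with a median of -0.18. Tyms, which makes thymidylate, had levels of 12.13 and 12.20 in E19, against 12.38 and 12.46 in E16, a ratio of -0.26 ± 0.013. Rrm1 and Rrm2 encode the large and small subunits of ribonucleotide reductase and differed in sign. Rrm1 had 12.94 and 12.88 in E19, against 12.85 and 12.81 in E16, a ratio of 0.07 ± 0.014 that turned to -0.14 when ratios were centred on the spike-in RNAs. Rrm2 had 12.15 and 11.98 in E19, against 12.26 and 12.23 in E16, a ratio of -0.18 ± 0.10. Rrm1 was the only replication gene above 0 on both arrays. Tk1, which salvages thymidine, stood at -0.18 ± 0.033. Of the licensing genes, the geminin gene Gmnn had 12.74 and 12.81 in E19, against 13.29 and 13.09 in E16, a ratio of -0.41 ± 0.19. Cdc6 had 10.23 and 10.27 in E19, against 10.54 and 10.53 in E16, a ratio of -0.28 ± 0.035.

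The G1 genes had the lowest class median, -0.40, with 7 of 9 below 0 on both arrays. Ccne1, which encodes cyclin E1, had the largest difference of the 58 genes. Its levels were 14.11 and 13.32 in E19, against 14.93 and 14.72 in E16, a ratio of -1.11 ± 0.40, or 2.15-fold higher in E16. Its ratios were -0.82 and -1.39, so only 1 array passed 2-fold, and a dimmer probe of Ccne1 gave -0.87. At a limit of 1.5-fold on both arrays, Ccne1 was the only gene of the set higher in E16, where 7.69% of all detected genes were, and 0 of 58 were higher in E19, where 9.54% were. Its relative Ccne2 had 10.11 and 10.23 in E19, against 10.47 and 10.71 in E16, a ratio of -0.42 ± 0.084.

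The D cyclins, which start the passage through G1, differed among themselves. Ccnd3 had levels of 13.50 and 13.24 in E19, against 13.88 and 13.92 in E16, a ratio of -0.53 ± 0.21. Ccnd2 had 12.05 and 11.97 in E19, against 12.39 and 12.65 in E16, a ratio of -0.51 ± 0.24. Ccnd1 had 14.00 and 13.85 in E19, against 14.08 and 13.83 in E16, a ratio of -0.03 ± 0.062. For Ccnd2 and Ccnd3 the stages did not overlap, and for Ccnd1 they did. The ratio of Ccnd1 was as close to 0 on its dimmer probe, at -0.03. Cdk4, the kinase the D cyclins bind, had 14.54 and 14.40 in E19, against 14.98 and 14.77 in E16, a ratio of -0.40 ± 0.048.

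Of the regulators downstream, E2f1, an activating E2F factor, had levels of 13.23 and 13.19 in E19, against 13.48 and 13.53 in E16, a ratio of -0.30 ± 0.059. Rb1 had 12.53 and 12.41 in E19, against 12.56 and 12.93 in E16. The ratio of Rb1 was -0.03 on 1 array and -0.52 on the other, so its mean of -0.27 rests on 1 array, and a dimmer probe gave 0.03. Cdkn1a, which encodes the cyclin-dependent kinase inhibitor p21, had 14.01 and 13.88 in E19, against 13.91 and 13.82 in E16, a ratio of 0.08 ± 0.031. Its probe was printed in 10 spots per array, and the SD over those spots was 0.042 on 1 array and 0.033 on the other. Cdkn1a turned to -0.14 when ratios were centred on the spike-in RNAs.

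**Figure D2:**
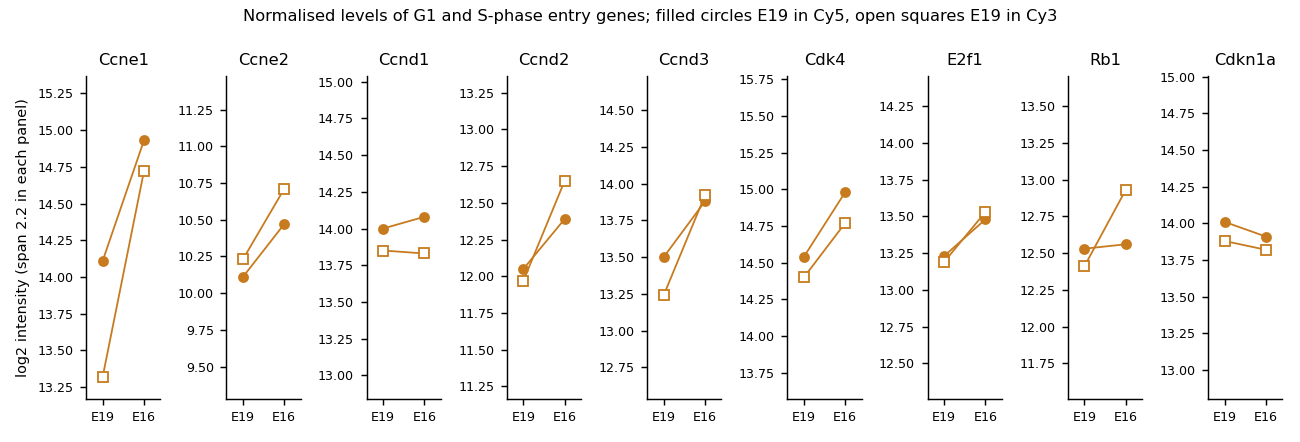
Normalised log2 intensity (y axis) of the 9 G1 and S-phase entry genes in the E19 pool (left) and the E16 pool (right), with filled circles for the array with E19 in Cy5 and open squares for the array with E19 in Cy3. Each panel has its own axis of equal length, so slopes compare and heights do not. Ccne1 has the steepest lines, at 14.11 and 13.32 in E19 against 14.93 and 14.72 in E16, and Ccnd1 and Cdkn1a are nearly flat.

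The mitosis genes had a median of -0.18 (-0.13 and -0.12 on the 2 arrays) and ran from -0.56 to 0.24. Of 26, 19 were below 0 on both arrays, 2 were above 0 on both (Cdc25b and Cenpf) and 5 changed sign between them. The cyclins and the kinase that drive entry into mitosis were split. Ccna2, the cyclin of S phase and G2, had levels of 13.60 and 13.71 in E19, against 14.25 and 14.04 in E16, a ratio of -0.49 ± 0.23. Cdc2a, the mitotic kinase itself, had 15.11 and 15.12 in E19, against 15.73 and 15.38 in E16, a ratio of -0.44 ± 0.25. Ccnb1 and Ccnb2, the cyclins it binds in mitosis, stood at -0.14 ± 0.21 and -0.01 ± 0.098, each with opposite signs on the 2 arrays. Cdc25b, the phosphatase that activates the kinase, had 12.68 and 12.65 in E19, against 12.38 and 12.48 in E16. Its ratio of 0.24 ± 0.093 was the highest of the 58 genes, and it was 0.02 when centred on the spike-in RNAs.

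The lowest mitotic values belonged to the spindle checkpoint, which holds cells until chromosomes are attached, but they came mainly from 1 array. Its median was -0.51, with -0.78 where E19 carried Cy5 and -0.16 on the dye swap. Bub1b, a component of the checkpoint complex, had levels of 13.01 and 13.50 in E19, against 13.90 and 13.72 in E16, a ratio of -0.56 ± 0.47. Bub1, a checkpoint kinase, had 13.51 and 13.98 in E19, against 14.43 and 14.00 in E16, a ratio of -0.47 ± 0.64. The SD of Bub1 was the largest of the 58 genes, its ratio being -0.93 on 1 array and -0.02 on the other. Ttk, the kinase that starts the signal, was steadier, with 13.06 and 13.18 in E19 against 13.73 and 13.60 in E16, a ratio of -0.54 ± 0.18. Mad2l1 stood at -0.12 ± 0.027. Plk1, a mitotic kinase outside the checkpoint, had the same array pattern as Bub1, at -0.70 and -0.08, with levels of 14.13 and 14.43 in E19, against 14.84 and 14.51 in E16. Aurkb, the kinase of the chromosomal passenger complex, stood at -0.18 ± 0.0096.

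The genes of anaphase had ratios of -0.26 for the securin gene Pttg1, -0.25 for the ubiquitin-conjugating enzyme gene Ube2c and -0.14 for Cdc20, an activator of the anaphase-promoting complex. Among the motors and bundling proteins of the spindle, Kif23 stood at -0.31, Kif20a at -0.24, Tpx2 at -0.18 and Kif11 at -0.07. Prc1 and Nusap1, which bundle spindle microtubules, had means of 0.12 and 0.07 with opposite signs on the 2 arrays. Both of these means turned below 0 when ratios were centred on the spike-in RNAs. Of the cytokinesis genes, Ect2, an exchange factor for RhoA, stood at -0.32 ± 0.31 and Racgap1 at -0.13 ± 0.11.

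Some genes used as markers of dividing cells were nearly level between stages, while Pcna, Mcm2 and Ccna2, which serve the same use, were at -0.35, -0.40 and -0.49. Mki67, which encodes the Ki-67 protein, had 12.57 and 12.57 in E19, against 12.60 and 12.65 in E16, a ratio of -0.06 ± 0.037. Top2a, the topoisomerase that untangles chromosomes, had 13.59 and 13.72 in E19, against 13.71 and 13.77 in E16, a ratio of -0.09 ± 0.044. Cenpf, a kinetochore protein, had 10.02 and 10.20 in E19, against 9.98 and 10.16 in E16, a ratio of 0.03 on each array. The stages overlapped for Top2a and Cenpf. For Mki67 the values in E19 lay just under those in E16. A dimmer probe of Cenpf gave -0.28, and its mean over probes was -0.12. Birc5, the survivin gene, stood at -0.17 ± 0.19.

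Between the classes, the replication median lay 0.11 below the mitosis median (difference -0.11, with -0.12 and -0.14 on the 2 arrays). Of 23 replication genes, 18 had a ratio under the mitosis median of -0.18, and 8 of 26 mitosis genes had a ratio under the replication median of -0.28. The distributions therefore overlapped, and the lowest mitosis genes (Bub1b, Ttk, Ccna2 and Bub1) were lower than every replication gene. The difference was -0.071 when all detected probes of a gene were averaged, and it has no test, since genes are not replicates of a stage.

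**Figure D3:**
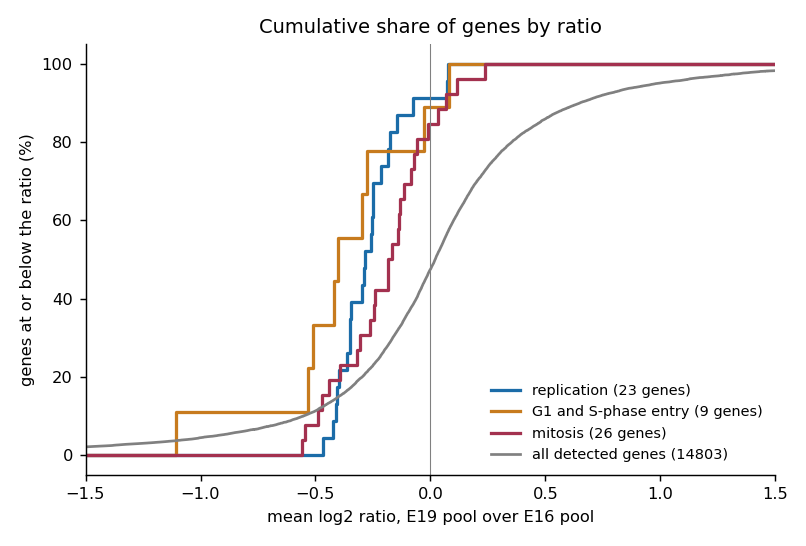
Share of genes, in percent, at or below each mean log2 ratio of E19 over E16 (x axis), for 23 replication genes, 9 G1 and S-phase entry genes, 26 mitosis genes and all 14803 detected genes. The curves of the 3 classes climb left of the grey curve of all genes over most of its middle, with medians of -0.28, -0.40 and -0.18 against 0.02. The classes also lack the long tails of the grey curve.

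The ratios of the set on the 2 arrays were only loosely related. Over the 58 genes the ratios of the 2 arrays correlated at r = 0.41, against r = 0.90 over all 14803 detected genes. Genes of 1 array share its dye and scan, and these correlations are given as a description. The median SD of the 2 arrays was 0.105 for the set and 0.11 for all genes. By class it was 0.10 for the replication, 0.08 for the G1 and 0.15 for the mitosis genes, so the mitosis genes were measured less tightly. The ratios of the set span a narrower range. The part of that range in the lower correlation was not tested.

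The brighter probes of the set had the lower ratios. At a mean log2 intensity of 14 or more, 10 of 10 genes were below 0 on both arrays, against 32.1% of all detected genes there. The median of the 10 was -0.40. From 12 to 14 the median was -0.25 over 32 genes, and from 10 to 12 it was -0.18 over 14 genes. Of these, 25 of 32 and 11 of 14 were below 0 on both arrays, against 36.1% and 37.1% of all detected genes. By their medians, all detected genes went the same way by less, at -0.01, 0.02 and 0.04 in the same bins. Within each of these bins the replication median lay below the mitosis median. It was -0.41 against -0.39 (5 and 3 genes) at 14 or more and -0.30 against -0.17 (9 and 17) from 12 to 14. From 10 to 12 it was -0.22 against -0.02 (7 and 6). From 8 to 10 there were 2 replication genes, with a median of -0.09, and no mitosis gene.

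Several probes were present for 26 of the 58 genes. In 21 of these (80.8%) the brightest probe had a lower ratio than the dimmest, as it had in 67.1% of 3500 such genes on the whole array. The median was -0.30 over their brightest probes and -0.17 over their dimmest, and in 5 genes the signs were opposite. Taking the brightest probe thus gave the lower of the values at hand for most of these genes. The part of brightness in the ratios was not tested.

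**Figure D4:**
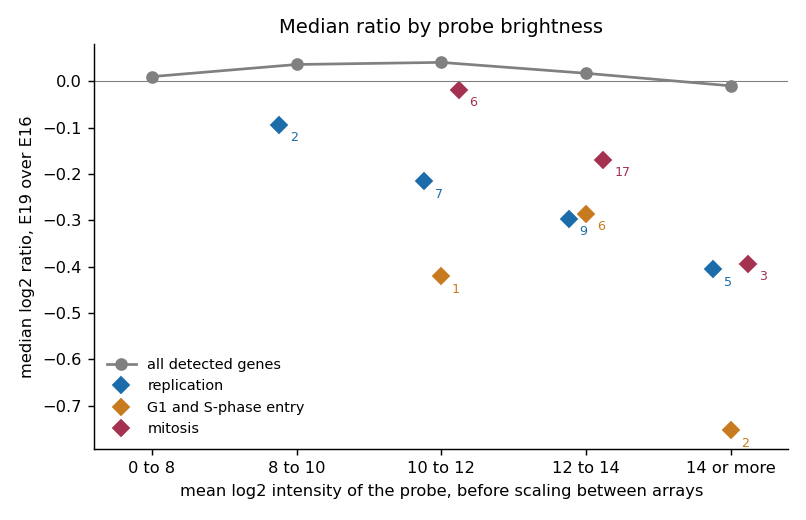
Median log2 ratio of E19 over E16 (y axis) by mean log2 intensity of the probe (x axis), for each class of the set and for all detected genes (grey), with the number of genes beside each diamond. The grey line stays between -0.01 and 0.04, and the replication and mitosis diamonds go lower towards bright probes, to -0.41 for 5 replication and -0.39 for 3 mitosis genes. The G1 diamonds do not follow that order, at -0.42 for 1 gene, -0.29 for 6 genes and -0.75 for 2 genes. With ratios centred on the spike-in RNAs all values would be lower, with the grey line below 0 too.

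Other genes of the same pathways gave similar medians. They were measured in the same 2 pools and chosen with earlier results of these data known, so they are not independent support. Of 39 further replication genes, 35 were detected, with a median of -0.24. On both arrays 27 of 35 (77.1%) were below 0 and 3 (8.57%) above, against 36.6% and 42% of all detected genes. On both arrays 0 passed 2-fold, against 4.15% of all detected genes towards E19 and 3.75% towards E16. The largest differences there were -0.73 ± 0.21 for Exo1, an exonuclease, -0.62 ± 0.19 for Chaf1b, a histone chaperone subunit, and -0.59 ± 0.12 and -0.52 ± 0.15 for the fork protection genes Timeless and Tipin. Of 48 further mitosis genes, 43 were detected, with a median of -0.20. On both arrays 32 of 43 (74.4%) were below 0, 3 (6.98%) were above and 0 passed 2-fold, beside the same shares of all detected genes. Stmn1, a microtubule regulator that neurons also express strongly, stood at -0.97 ± 0.17, Sgo2, a protector of centromeric cohesion, at -0.74 ± 0.11, and the kinase-binding subunit gene Cks1b at -0.54 ± 0.078. Cdkn3, a phosphatase that acts on cyclin-dependent kinases, stood at 0.50 ± 0.13.

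Further regulators of G1 and S phase, 17 detected of 19, had a median of -0.24. On both arrays 13 of 17 (76.5%) were below 0, against 36.6% of all detected genes. On both arrays 0 passed 2-fold, against 4.15% of all detected genes towards E19 and 3.75% towards E16. Skp2, which marks the inhibitor Cdkn1b for degradation, stood at -0.97 ± 0.028, with -0.95 and -0.99 on the 2 arrays, just short of 2-fold. Mycn, a growth-promoting transcription factor, stood at -0.55 ± 0.19, E2f5, a repressing E2F factor, at -0.53 ± 0.13 and Cdc25a, a phosphatase of S-phase entry, at 0.48 ± 0.088.

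Of 20 genes listed as cell cycle inhibitors, exit genes and their regulators, 19 were detected, Cdkn1a and Rb1 among them, with a median of 0.05. Between -0.5 and 0.5 lay 13 of 19, against 11038 of all 14803 detected genes, so the list was not closer to level than other genes. On both arrays, 2 of 19 were at least 2-fold higher in E19, against 4.15% of all detected genes, and 1 of 19 in E16, against 3.75%. Cdkn2b, an inhibitor of Cdk4, had ratios of 1.68 and 1.53 on the 2 arrays and a mean of 1.60 ± 0.11, and it rose past 2-fold in E19. Tob1, an antiproliferative protein gene, also passed 2-fold in E19, at 1.52 ± 0.44. Cdkn1c, an imprinted inhibitor of cyclin-dependent kinases, had -1.63 and -2.44 and a mean of -2.03 ± 0.57, past 2-fold towards E16. Cdkn2a, which has an inhibitor of Cdk4 among its products, had -1.04 and -0.99, so 1 array fell short of 2-fold. Cdkn2b, Tob1 and Cdkn1c thus differed more than any of the 58 genes, with Cdkn2b and Tob1 higher in E19 and Cdkn1c lower.

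In the authors' deposited table, which combines both arrays into 1 ratio, 52 of 58 genes were below 0, against 44.5% of all detected genes. The medians in that table were -0.28 for replication, -0.41 for G1 and -0.21 for mitosis genes, against 0.05 for all genes. A p-value under 0.01 in the authors' deposited table went with a ratio below 0 for 25 of 58 genes (20% of all genes) and with a ratio above 0 for 0 of 58 (28% of all genes). The 25 were 13 of 23 replication, 6 of 9 G1 and 6 of 26 mitosis genes. How that p-value was made is not given in the sources used here, and it rests on the same 2 pools. Ccne1 had a log2 ratio of -1.07 in the authors' deposited table.

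**Figure D5:**
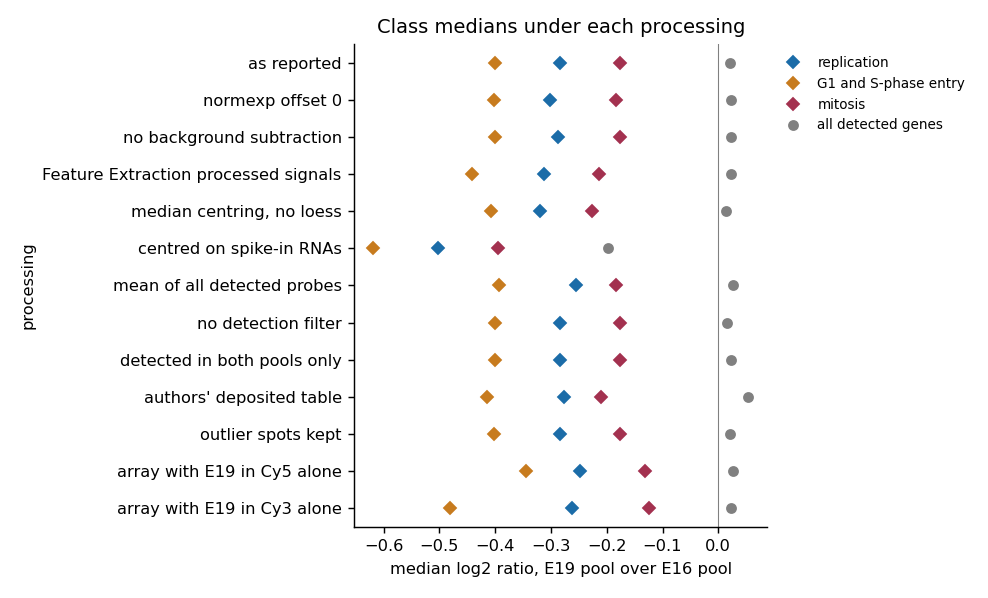
Median log2 ratio of E19 over E16 (x axis) of the replication, G1 and mitosis genes and of all detected genes (grey), one line for each way of processing the arrays. In every line the 3 classes keep their order and lie left of the grey point. Centring on the spike-in RNAs moves all 4 points left together, the grey one to -0.20, and so cannot change their order.

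Markers of several other cell types differed between stages by more than the cycle genes did, and more cells of a type and more marker RNA per cell cannot be told apart here. Markers of adipocytes (8 of 8 detected) had a median ratio of 3.55 and a summed log2 level of 16.79 to 16.82 in E19, against 13.11 to 13.45 in E16. Suprabasal keratinocyte markers (7 detected of 9) had a median of 1.87 (2.47 with E19 in Cy5 and 1.48 on the dye swap). Their summed level was 19.66 to 19.91 in E19, against 17.13 to 18.81 in E16. Basal keratinocyte markers (8 of 9) had a median of 1.13, with 19.19 to 19.23 in E19, against 17.55 to 18.44 in E16. Markers of cornifying and fat-storing cells were thus higher in E19. Markers of neurons and glia (12 of 12) had a median of -3.01, with 13.11 to 13.15 in E19, against 15.87 to 15.88 in E16. Cartilage and bone markers (10 of 10) had a median of -1.95, with 16.35 to 16.36 in E19, against 16.41 to 16.54 in E16. In that list 8 of 10 were below 0 on both arrays and 2 of 10 above, and the summed levels were close.

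The remaining marker lists had medians nearer to 0, though the summed levels of muscle and erythroid markers differed more than those of cartilage and bone. Skeletal muscle markers (9 of 9) had a median of -0.98 (-0.38 with E19 in Cy5 and -1.58 on the dye swap). Their summed level was 17.84 to 18.61 in E19, against 19.12 to 19.17 in E16. Erythroid markers (6 of 8) had a median of -0.35 (-0.54 with E19 in Cy5 and -0.15 on the dye swap). Their summed level was 17.03 to 17.84 in E19, against 18.59 to 19.48 in E16. Both lists were lower in E19 by their medians, with 5 of 9 muscle and 4 of 6 erythroid markers below 0 on both arrays. Myh8, a fetal myosin heavy chain, went the other way, past 2-fold in E19 on both arrays, with a ratio of 1.90 on 1 array. Fibroblast markers (8 of 8) had a median of 0.62, with 19.25 to 19.48 in E19, against 18.36 to 18.98 in E16. Their median was 0.97 with E19 in Cy5 and 0.18 on the dye swap, with 6 of 8 above 0 on both arrays and 2 of 8 below. Leukocyte markers (8 of 8) had a median of 0.74, with 17.04 to 17.23 in E19, against 16.15 to 16.20 in E16. Endothelial markers (7 of 7) had a median of 0.45, with 15.08 to 15.31 in E19, against 14.92 to 15.16 in E16. Each detected marker was well above background in both pools on both arrays. The part of these cell types in the ratios of the cycle genes was not tested.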

How the data were processed

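RNA of 2 pools, E19 and E16 fetal rat skin, was compared on 2 dye-swapped Agilent arrays, which count as 1 replicate per stage. Per the file headers, Agilent Feature Extraction 9.5.1.1 measured spot intensity and local background. The deposited intensity values used are the mean signal and median background, uncorrected, and per the file headers the processed signals are background-subtracted and dye-normalised. For each of 36824 sequences the authors' deposited table holds 1 log10 ratio over both arrays with its p-value. How they were combined is not given in the sources used here. The direction was read as E19 over E16 because it correlated with that ratio on each array (r = 0.90 and 0.90). Its log10 ratios were turned to log2.

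Intensities were background-corrected with normexp (offset 50) and normalised by loess within arrays, with control and outlier spots at weight 0, then by Aquantile for levels, in limma 3.58.1 under R 4.3.3. Ratios were taken as E19 over E16 on both arrays, spots of a probe were averaged, and the arrays were averaged. Tables were made with Python 3.11.15, numpy 2.4.6, pandas 2.3.3 and matplotlib 3.10.9. A gene counted as changed when at least 2-fold in 1 direction on both arrays, among 14803 detected genes. The number of arrays limits the precision. The genes, their roles, the further lists and the markers were chosen with earlier results of these data known. Any gene of the set could be named, with up to 4 genes of each other list, those of largest ratio, and Gapdh and Actb. Gapdh had ratios of 0.43 and -0.38 on the 2 arrays and Actb 0.62 and -0.70. The files name no genome build, so coordinates come only from the RefSeq promoters. Alternatives changed the background correction, dye normalisation, centring, filter, probe choice, outlier spots, array and fold limit, or took the authors' table.

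On simulated arrays of 40870 probes, the 2-fold rule recovered 89.9% of 99 probes with a true log2 ratio of 1.5, 100% of 100 probes at 3.0, and called 0 of 40671 unchanged probes. The simulated noise was of equal size for every probe and independent between arrays, and the changed probes were dimmer than most of the cycle genes. With such noise an unchanged probe could hardly pass on both arrays, so the 0 calls give no rate of false calls for the real arrays. Smaller differences, such as those of the cycle genes, were not simulated.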

Additional observations from a re-analysis of the deposited data

How the results depend on the processing

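The medians of replication, G1 and mitosis genes stayed below 0 and in the same order under each of 12 other settings, over ranges of -0.50 to -0.25, -0.62 to -0.34 and -0.39 to -0.12, and the replication minus mitosis difference over -0.14 to -0.067. Not all of these settings could change the order. Spike-in centring takes the same value from every gene, so it fixes the order and the difference. Both changes of the detection filter left all 58 values the same, and each single array is a part of the reported mean. The replication and mitosis medians were -0.30 and -0.18 without the normexp offset, -0.31 and -0.21 from Feature Extraction's processed signals, -0.32 and -0.23 with median centring in place of loess, -0.50 and -0.39 centred on the spike-in RNAs (G1 -0.62), -0.26 and -0.18 over all detected probes, -0.25 and -0.13 with E19 in Cy5 alone, and -0.26 and -0.12 on its dye swap. The mitosis median was -0.21 in the authors' deposited table. The difference was -0.071 over all detected probes, -0.067 in the authors' deposited table and -0.14 with E19 in Cy3. Spike-in centring moved the median of all detected genes to -0.20. With median centring, 10 genes (19.7% of all detected genes) were below 0 on both arrays in place of 47 (36.6% of all). Without loess the median of all detected genes was 0.31 on 1 array and -0.31 on the other. Ccne1 was the 1 gene past the size limit on both arrays with spike-in centring, and at 1.5-fold. It was also the 1 gene past 2-fold in the authors' deposited table and with E19 in Cy3 alone. Each of these holds 1 ratio per gene, so the rule of both arrays could not apply. Of 580 single-gene values under the settings that use both arrays, 103 moved beyond the SD between arrays and 8 turned sign. No paired analysis was possible because there is 1 pool per stage. Signal was not limiting, since all 58 genes were well above background.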

Other observations

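Aurka, a kinase of the spindle poles, and Cdt1, a licensing factor, were present on the arrays under the older names Stk6 and Ris2, by accession. Aurka had ratios of -0.18 and -0.05 on the 2 arrays, a mean of -0.12 ± 0.097. Cdt1 had -0.22 and -0.34, a mean of -0.28 ± 0.084. Both means lay within the range of the replication and mitosis genes, and both genes stayed out of every count.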
